A study of Mus musculus with 8 samples.

Results

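The NMDA receptor subunit genes Grin1, Grin2a, Grin2b, Grin2c, Grin2d and Grin3a were examined in hippocampal RNA from female mice given DHEA or its vehicle. They were found by gene symbol and are 6 of the 29442 genes in the count table. All 6 had counts in every library, so no member was lost to a filter on low values. The remaining subunit gene Grin3b is described beside them as a related gene.

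The mice were C57BL/6 J females, 6 to 8 weeks old. In the DHEA-treated group, 4 mice received DHEA subcutaneously (30 mg/kg each day for 21 days), and in the control group 4 mice received sesame oil on the same schedule. RNA came from the hippocampus according to the deposited labels, and from its ventral part according to the methods. The mice had gone through behavioral tests before the tissue was taken, and the libraries are named here as their labels name them (HipR3, HipR4, HipR7 and HipR11 for DHEA, HipR5, HipR9, HipR10 and HipR16 for sesame oil). Group directions follow the deposited treatment labels, so "with DHEA" stands for the libraries labelled DHEA. These directions are opposite to those in the study's table of differentially expressed genes, which cannot be settled from these files, since no gene in them gives an independent check of which mouse received DHEA. Measurements that the study made by qRT-PCR, western blot and ELISA were not analysed here. The paper reports that its qRT-PCR, in additional hippocampal samples, had the directions of its own sequencing results. Those directions are opposite to the ones given here by the deposited labels. If the labels of the groups were exchanged, every sign given below would turn, while the sizes and p-values would stay.

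The NMDA receptor is a glutamate-gated cation channel made of 4 subunits. It opens when glutamate and a co-agonist, glycine or D-serine, are bound and depolarization has moved magnesium out of the pore. GluN1, encoded by Grin1, is part of every receptor and binds the co-agonist. The GluN2 subunits (Grin2a to Grin2d) bind glutamate and set how fast the channel closes, and GluN3 subunits lower calcium entry. In the hippocampus the channel is known for its part in synaptic plasticity. DHEA and its sulfate are neurosteroids, and the sulfate is known to act on NMDA receptors.

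Total gene counts ran from 35748416 to 38038361 per library in the DHEA-treated group and from 31483772 to 35418297 in the control group, so every DHEA library was deeper than every control. At this depth the members had from 358 counts (Grin2d in HipR3) to 33468 counts (Grin2b in HipR3) in a library. Levels are given as CPM, which are counts scaled to a normalized library total of 1000000, and as the deposited FPKM, which also divide by gene length. Only FPKM are used to compare one gene with another.

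Several libraries stood apart in markers of other tissue. The 4 choroid plexus markers (Ttr, Kl, Folr1 and Aqp1) summed to 84.3 CPM in HipR4 and 481 CPM in HipR9, against 1945 to 4296 CPM in the other libraries. The 4 anterior pituitary markers summed to 23.6 CPM in HipR10 and to at most 4.80 CPM elsewhere. Markers of hippocampal excitatory neurons were plentiful, since the 6 genes of that list, with Slc17a7 having the most counts, summed to 1481 to 1720 CPM over the 8 libraries.

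Per gene length, Grin1 was the most abundant member at 74.2 ± 9.13 FPKM (SD, n = 4) in the DHEA-treated group and 84.6 ± 1.83 FPKM (SD, n = 4) in the control group. Grin2b followed with 33.2 ± 1.97 and 34.5 ± 1.36 FPKM, and Grin2a with 17.4 ± 0.58 and 17.3 ± 0.743 FPKM. Grin3a had 5.65 ± 0.709 and 5.74 ± 0.475 FPKM, and Grin2c had 4.86 ± 1.06 and 5.05 ± 0.567 FPKM. Grin2d was lowest with 1.61 ± 0.301 and 1.83 ± 0.166 FPKM. The ranges over the 8 libraries did not meet between Grin1, Grin2b, Grin2a and the group of Grin3a and Grin2c, nor between that group and Grin2d. Grin3a (4.72 to 6.39 FPKM) and Grin2c (3.67 to 5.98 FPKM) overlapped and were not separated by their spread. FPKM use 1 length per gene, which was 25066 bases for Grin2b, 4372 bases for Grin1 and 10121 bases for Grin2c. The order rests on these lengths. In the annotation GENCODE vM21, the exons of Grin2b cover a similar 24842 bases, but those of Grin1 cover 9700 and those of Grin2c 5037. With such lengths Grin1 would be lower and Grin2c higher per gene length. The order of the members and the GluN2 shares below were not recomputed with them.

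**Figure D1:**
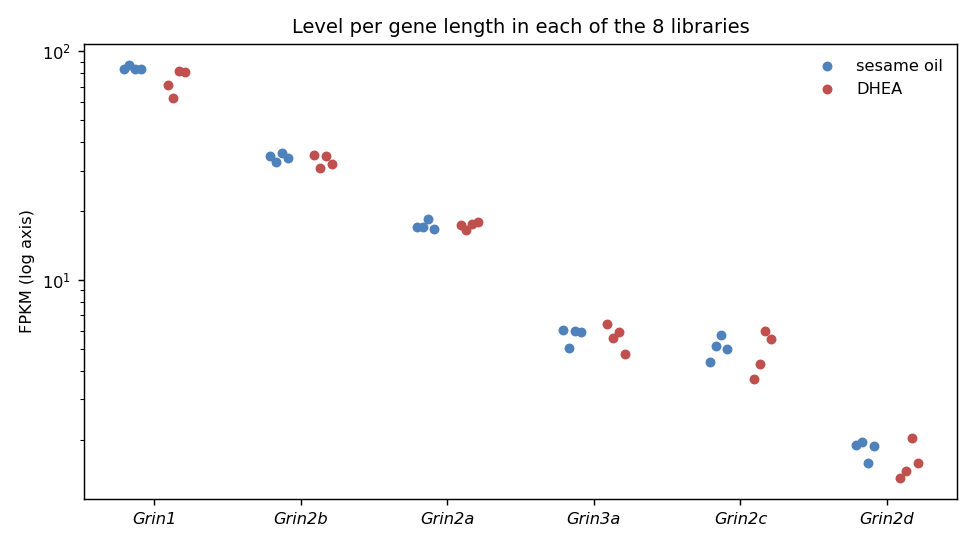
FPKM of the 6 NMDA receptor subunit genes (log axis) in each of the 8 libraries, blue for sesame oil and red for DHEA. Grin1, Grin2b and Grin2a form separate levels in that order, while the points of Grin3a and Grin2c overlap.

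Of the summed GluN2 FPKM, Grin2b took 58.2% ± 2.04 (SD, n = 4) in the DHEA-treated group and 58.8% ± 1.05 (SD, n = 4) in the control group. The share of Grin2a was 30.5% ± 1.01 and 29.5% ± 0.522, that of Grin2c 8.49% ± 1.62 and 8.59% ± 0.79, and that of Grin2d 2.80% ± 0.422 and 3.13% ± 0.384. The groups overlapped for each of these 4 shares, and none differed beyond the spread between libraries (two-sided exact permutation tests, p = 0.171 for Grin2a, 0.657 for Grin2b, 0.943 for Grin2c and 0.343 for Grin2d).

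With DHEA, Grin1 was the one member whose groups did not overlap, and the other 5 overlapped. Grin1 was 320 CPM in HipR3, 282 CPM in HipR4, 355 CPM in HipR7 and 351 CPM in HipR11. In the control group it was 362 CPM in HipR5, 375 CPM in HipR9, 364 CPM in HipR10 and 365 CPM in HipR16. HipR3 and HipR4 were clearly low, whereas HipR7 and HipR11 lay just below the lowest control library. The means were 327 ± 33.9 CPM (SD, n = 4) and 366 ± 5.83 CPM (SD, n = 4), and an exact permutation test (two-sided) gave p = 0.0286, the smallest p that 4 against 4 allow. The log2 fold change of Grin1 was -0.16 (standard error 0.07, 95% interval -0.31 to -0.02), with an unadjusted p of 0.0296 and an adjusted p of 0.486 from edgeR (quasi-likelihood test, Benjamini-Hochberg over all genes tested), so it failed the correction. Groups without overlap and lower with DHEA occurred in 2.62% of all genes tested, and in 4.23% of the 12780 genes whose mean count was 100 or more. In GENCODE vM21, Grin1 shares 1307 exon bases with Grin1os on the opposite strand, which had at most 24 counts in a library, against at least 10051 for Grin1.

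The size of the Grin1 difference depended on single libraries. Without HipR4 its log2 fold change was -0.11 (unadjusted p = 0.0861 from edgeR's test), and without HipR3 it was -0.15 (unadjusted p = 0.056). It was also -0.15 without the control library HipR9 (unadjusted p = 0.0693). With any one library removed, its log2 fold change stayed between -0.21 and -0.11, and the unadjusted p was under 0.05 in the other 5 of 8 cases (lowest 0.00908, without HipR7).

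**Figure D2:**
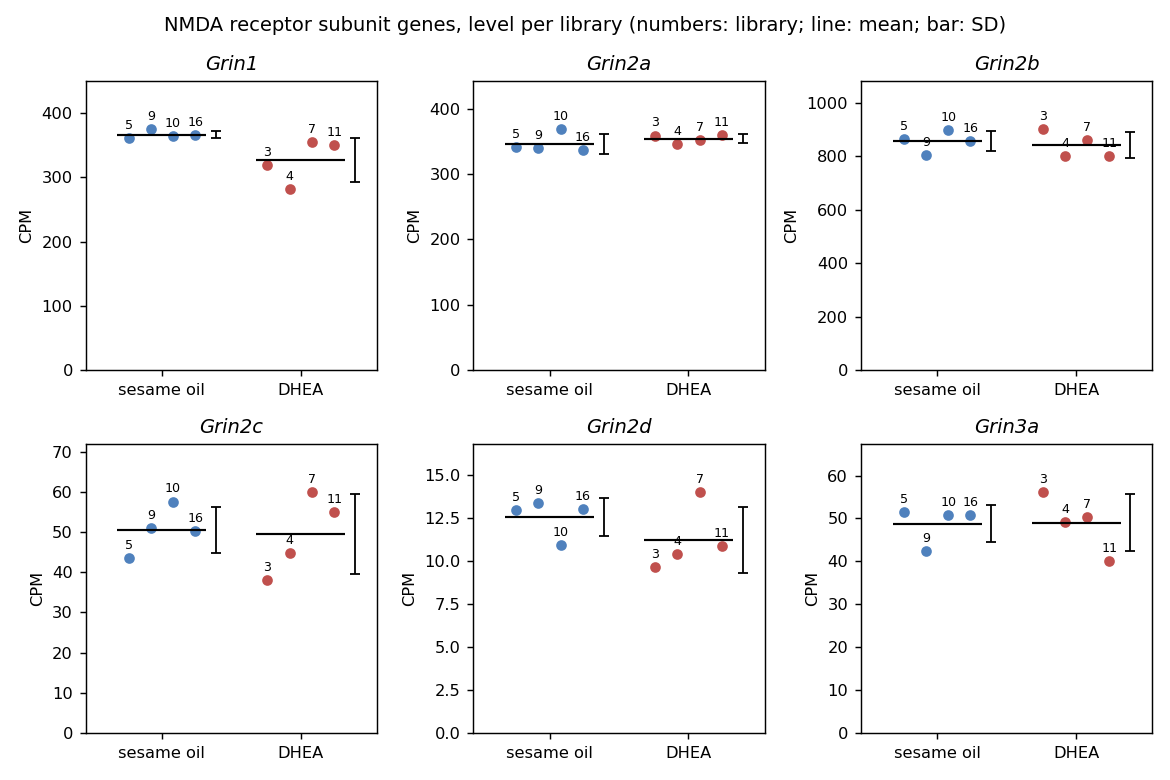
CPM of each NMDA receptor subunit gene by library (vertical axes start at 0), with library numbers at the points, the group mean as a line and the SD as a bar. All 4 DHEA points of Grin1 lie below the 4 sesame oil points, lowest at 282 CPM in HipR4, and in the other 5 genes the points of the groups overlap.

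Grin2a and Grin2b, the GluN2 subunits that predominate in adult forebrain, stayed close between the groups. Grin2a was 359, 346, 352 and 360 CPM in HipR3, HipR4, HipR7 and HipR11, and 341, 339, 369 and 336 CPM in HipR5, HipR9, HipR10 and HipR16. Its DHEA values all lay between 346 and 360 CPM, and only HipR10 among the controls exceeded them. The log2 fold change of Grin2a was 0.03 (standard error 0.06, 95% interval -0.09 to 0.15, adjusted p = 0.851 from edgeR's test), an interval from -5.82% to 11.1%. Grin2b was 901, 802, 862 and 800 CPM in HipR3, HipR4, HipR7 and HipR11, and 863, 806, 897 and 858 CPM in HipR5, HipR9, HipR10 and HipR16. Each group held both high and low libraries. The log2 fold change of Grin2b was -0.02 (standard error 0.06, 95% interval -0.16 to 0.11, adjusted p = 0.902 from edgeR's test), an interval from -10.3% to 7.74%. These intervals do not show that the levels were equal.

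Grin2c and Grin2d, which form slowly closing channels with weak magnesium block, varied more from mouse to mouse. Grin2c was 38.04, 44.9, 60.0 and 55.1 CPM in HipR3, HipR4, HipR7 and HipR11, and 43.6, 50.9, 57.6 and 50.2 CPM in HipR5, HipR9, HipR10 and HipR16. The DHEA values spanned both the lowest and the highest of the 8 libraries, with a SD of 9.91 CPM against 5.75 CPM in the control group. For Grin2c the log2 fold change was -0.03 (standard error 0.12, 95% interval -0.27 to 0.21, adjusted p = 0.941 with edgeR). Grin2d, a subunit known from inhibitory interneurons in the hippocampus, was 9.64, 10.4, 14.0 and 10.8 CPM in HipR3, HipR4, HipR7 and HipR11. In HipR5, HipR9, HipR10 and HipR16 it was 13.0, 13.4, 10.9 and 13.0 CPM. HipR3, HipR4 and HipR11 lay below all controls, but HipR7 was the highest of the 8. For Grin2d the log2 fold change was -0.16 (standard error 0.13, 95% interval -0.43 to 0.10, adjusted p = 0.666 with edgeR), and it was -0.29 without HipR7 (unadjusted p = 0.0261, adjusted p = 0.286) and -0.097 without HipR3 (unadjusted p = 0.472), the range over the 8 omissions, and the unadjusted p was above 0.05 in all of them but that of HipR7.

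Grin3a, the GluN3 subunit best known from the developing brain, was 56.2, 49.1, 50.4 and 40.1 CPM in HipR3, HipR4, HipR7 and HipR11, and 51.4, 42.4, 50.7 and 50.7 CPM in HipR5, HipR9, HipR10 and HipR16. HipR11 and HipR9 were the low libraries, 1 in each group, and the group means were 49.0 ± 6.64 and 48.8 ± 4.29 CPM (SD, n = 4). Both libraries have sample records numbered apart from those of the others. The labels give no reason for this, and its part in the low values was not tested. The log2 fold change of Grin3a was 0.00 (standard error 0.09, 95% interval -0.19 to 0.20, adjusted p = 0.984 from edgeR's test). Its sign is not determined, since it was negative with 12 of the 17 alternative settings. The other GluN3 gene, Grin3b, had 0 to 4 counts in a library, too few for a statement about DHEA.

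By the adjusted p of edgeR's quasi-likelihood test, 0 of the 6 members changed, as did 0 of the 27612 genes tested (0.00%). At an unadjusted p under 0.05, 1 of 6 members passed, Grin1, against 9.31% of all genes tested and 15.7% of those whose mean count was 100 or more, a share that says nothing particular about the members. An unadjusted p under 0.05 together with a change of 2-fold or more in either direction was found for 0 of the 6, and for 1.60% of all genes. The median log2 fold change of the 6 members was -0.03, beside 0.01 over all genes tested. The median size of the change, without its sign, was 0.03 for the members and 0.10 for genes whose mean count was 100 or more. Over all genes tested it was 0.21, so this size depends on abundance. The members had mean counts of 414 (Grin2d) to 29645 (Grin2b) and were not matched to genes of like abundance. For the 4 AMPA receptor subunit genes Gria1 to Gria4, which encode the other main class of glutamate-gated channels, the log2 fold changes ran from -0.11 (Gria3) to -0.02 (Gria1), and 0 of 4 had an unadjusted p under 0.05.

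**Figure D3:**
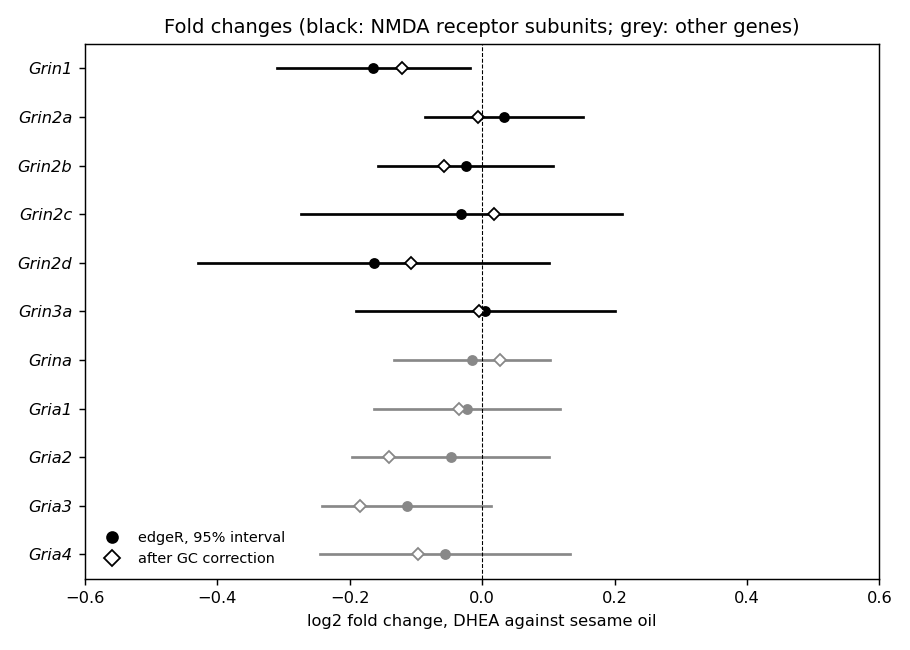
Log2 fold change (DHEA against sesame oil) from edgeR with its 95% interval for the 6 NMDA receptor subunits (black) and for Grina and the AMPA receptor subunits (grey), with open diamonds for the value after correction for GC content. Only the interval of Grin1 lies wholly below 0, and its diamond is at -0.12.

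A ratio of 2 genes in one library does not depend on library size, so 4 ratios were compared. The ratio of Grin2a to Grin2b is often used as a measure of receptor maturity, and on the FPKM scale it was 0.494, 0.535, 0.507 and 0.558 in HipR3, HipR4, HipR7 and HipR11. It was 0.491, 0.522, 0.510 and 0.486 in HipR5, HipR9, HipR10 and HipR16. The groups overlapped, and the log2 ratio was 0.06 higher with DHEA (two-sided exact permutation test, p = 0.257, and 0.257 after Benjamini-Hochberg adjustment over the 4 ratios).

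The ratio of Grin2a to Grin1 was 0.243, 0.266, 0.215 and 0.222 in HipR3, HipR4, HipR7 and HipR11, against 0.204, 0.196, 0.219 and 0.199 in HipR5, HipR9, HipR10 and HipR16. The control library HipR10 lay above HipR7, so the groups overlapped. The log2 ratio was 0.20 higher with DHEA (two-sided exact permutation test, p = 0.0571, and 0.229 after adjustment over the 4 ratios). Without HipR7 the groups did not overlap and the difference was 0.25 (exact permutation test, p = 0.0286, the smallest possible), whereas with any other library removed the exact permutation p was 0.0571 to 0.143. The log2 ratio of Grin2b to Grin1 was 0.14 higher with DHEA and that of Grin3a to Grin1 0.17 higher, both with p = 0.229 (two-sided exact permutation tests) and overlapping groups. None of the 4 ratios differed beyond the spread between libraries.

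**Figure D4:**
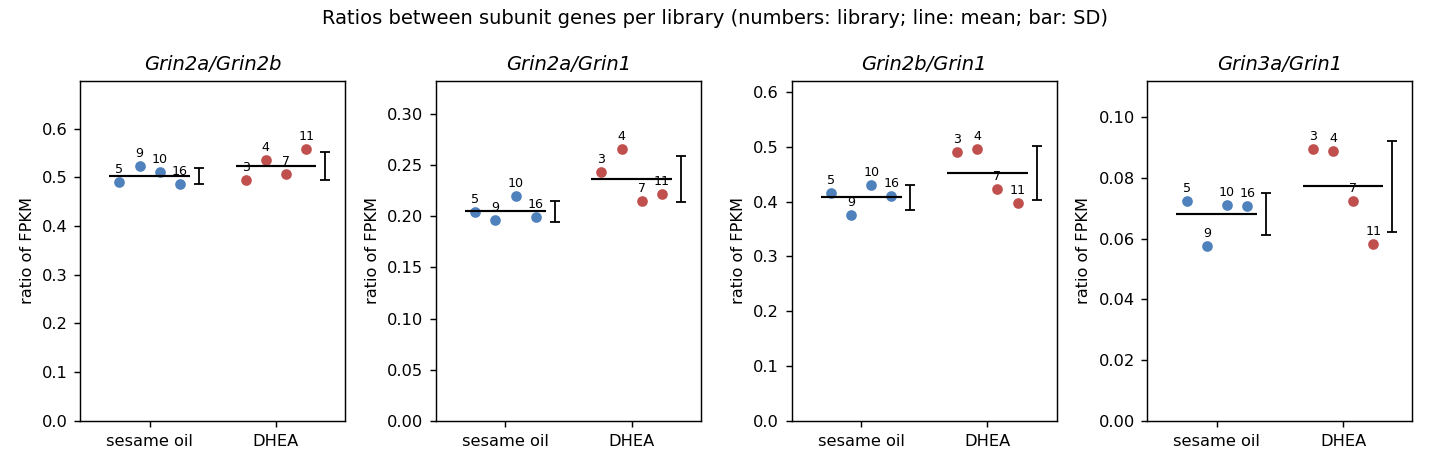
Ratios of FPKM between subunit genes by library (vertical axes start at 0), with library numbers at the points, the mean as a line and the SD as a bar. The groups overlap in all 4 panels, and in the panel of Grin2a to Grin1 the DHEA libraries HipR3 and HipR4 are highest at 0.243 and 0.266.

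The GC content of the transcripts moved with these differences. In the DHEA-treated group the level of a gene relative to its mean fell with GC content (Spearman correlation across 15594 genes, which are not independent replicates, from -0.159 to -0.0103), and in the control group it rose (0.0729 to 0.184). Among the members, Grin1 (59.4%), Grin2c (62.1%) and Grin2d (65.0%) have GC-rich longest transcripts, whereas Grin2a (44.8%), Grin2b (45.7%) and Grin3a (49.2%) do not. After each library's trend was removed, the log2 fold change of Grin1 was -0.12 (unadjusted p = 0.0783, adjusted p = 0.477 from edgeR's test), whereas the same genes without the correction gave -0.18 (unadjusted p = 0.0322). The adjusted p of Grin1 ran from 0.175 to 0.749 over the 17 alternative settings. Among the AMPA receptor subunits, Gria3 was at -0.11 on the log2 scale in the main fit. After the correction it was at -0.18 (unadjusted p = 0.00992, adjusted p = 0.351 from edgeR's test). Gria2 was at -0.05 in the main fit and at -0.14 after the correction (unadjusted p = 0.0945 from edgeR's test). The corrected fit also covers fewer genes, and for Gria3 and Gria2 the 2 changes were not separated. The log2 difference in the ratio of Grin2a to Grin1 went from 0.20 to 0.12 (exact permutation test, p = 0.0857). Treatment and library preparation as sources of this trend cannot be told apart.

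Over the 38 genes of the members and the related genes below whose mean count was 100 or more, 8 of 12 with a GC content of at least 55% had a negative log2 fold change, and 4 of 16 with a GC content under 50%. After the correction these counts were 6 of 12 and 8 of 16. Because the correction removes the trend with GC content, a more even split follows from its construction. The corrected fit also covers fewer genes. These counts were not taken from the fit of those genes without the correction. The parts of the correction and of the smaller gene set in them were therefore not tested. Among the members, that fit gave 0.019 for Grin2a and -0.042 for Grin2c, with the signs of the main fit. The corrected values were -0.0056 and 0.018. Grin3a had already turned in that fit, from 0.0049 to -0.0096. Grin1, Grin2b and Grin2d were negative in all of these fits. The move in these counts is no result about these genes.

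**Figure D5:**
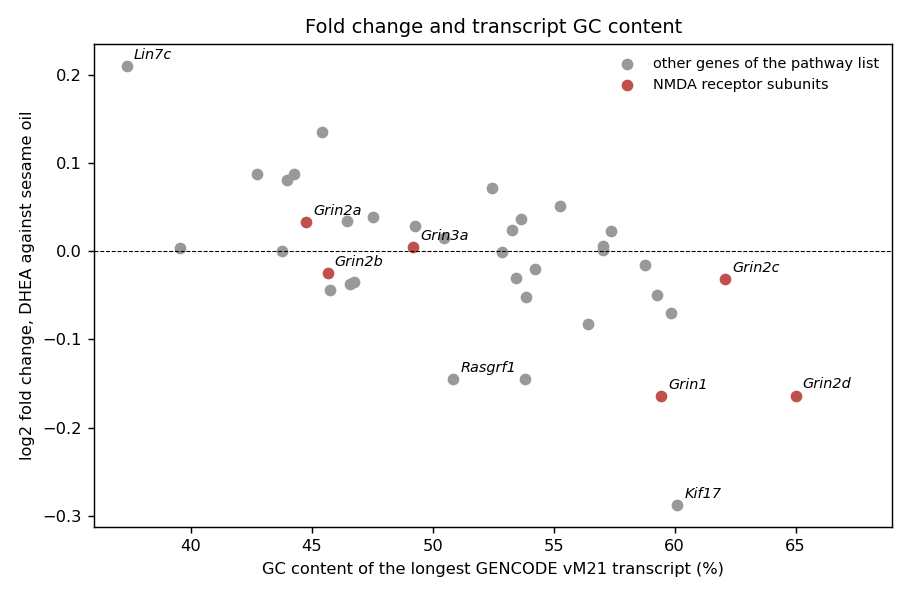
Log2 fold change (DHEA against sesame oil) plotted against the GC content of the longest transcript for the 6 NMDA receptor subunits (red) and 32 related genes (grey). The labelled related genes are those with an unadjusted p under 0.05, and Grin1, Grin2d and Kif17 lie at the GC-rich lower right.

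Cell type markers also moved. The 6 markers of myelinating oligodendrocytes all had an unadjusted p under 0.05 and were higher with DHEA (median log2 fold change 0.39), and none was at 0. They summed to 6163, 7802, 6087 and 6283 CPM in HipR3, HipR4, HipR7 and HipR11, and to 4933, 5931, 4909 and 4159 CPM in HipR5, HipR9, HipR10 and HipR16, with the most counts on Mbp. HipR4 had both the highest sum and the lowest Grin1, whereas HipR9, with the highest sum of the controls, had the highest Grin1 of the 8 libraries. Of the 6 astrocyte markers, 4 passed at an unadjusted p under 0.05, all higher (median log2 fold change 0.17). The astrocyte list summed to 5334 to 6385 CPM in the DHEA-treated group and to 4636 to 5425 CPM in the control group, with the most counts on Slc1a2. The excitatory neuron list summed to 1645, 1575, 1481 and 1502 CPM in HipR3, HipR4, HipR7 and HipR11, and to 1618, 1581, 1720 and 1619 CPM in HipR5, HipR9, HipR10 and HipR16, with overlap (median log2 fold change -0.08). Of its 6 genes 1 passed at an unadjusted p under 0.05, Spink8, which was higher (log2 fold change 0.32, unadjusted p = 0.0264 from edgeR's test, with overlap). The inhibitory neuron list overlapped as well, at 641 to 732 and 663 to 750 CPM, with 0 of 6 passing. Beside these marker counts stands the share of 9.31% of all genes tested, or 15.7% of those whose mean count was 100 or more, with an unadjusted p under 0.05. At that threshold, 1 of 3 oligodendrocyte precursor, 1 of 4 microglia and 2 of 4 endothelium markers were higher, and 0 of 4 choroid plexus, 0 of 4 thalamus and 0 of 4 cerebellum markers passed. Of the 4 neocortex markers 1 was lower (Fezf2), and of the 4 anterior pituitary markers 2 were lower (Gh and Prl, with at most 3 and 8 counts in a DHEA library and with 248 and 591 counts in HipR10, and with signs that are likewise opposite in the study's table). In bulk tissue, fewer neurons and less Grin1 RNA per neuron cannot be told apart, and the part of these markers in the difference of Grin1 was not tested.

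Among 34 related genes of the pathway, 1 was higher (4.82% of all genes tested) and 2 were lower (4.49% of all genes tested) at an unadjusted p under 0.05, 31 did not pass, and 0 had an adjusted p under 0.05. The 7 genes that handle the co-agonists did not pass, among them Srr, which makes D-serine (log2 fold change -0.04), and the glycine transporter gene Slc6a9 (0.01). None of the 8 kinase and phosphatase genes passed either, including Camk2a (0.02), the kinase that the calcium entry activates in plasticity, and Fyn (0.03). Src, a tyrosine kinase that phosphorylates NMDA receptor subunits, was 105, 105, 101 and 103 CPM in HipR3, HipR4, HipR7 and HipR11, and 107, 107, 106 and 108 CPM in HipR5, HipR9, HipR10 and HipR16. Its groups did not overlap (two-sided exact permutation test, p = 0.0286), but the difference was small, at -0.05 on the log2 scale (adjusted p = 0.733 from edgeR's test), and -0.0051 after the GC correction. Kif17, below, and Src were the 2 of 34 related genes without overlap, both lower, beside 2.62% of all genes tested and 4.23% of those whose mean count was 100 or more, so the count says nothing particular about these genes. Grina, whose product was first described as an NMDA receptor-associated protein, had a log2 fold change of -0.02. For Tmem97, the sigma-2 receptor gene, it was 0.07 (adjusted p = 0.851 from edgeR's test).

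Of the 12 scaffold and trafficking genes, 1 was higher and 1 was lower at an unadjusted p under 0.05 from edgeR's test. Over all genes tested these shares were 4.82% and 4.49%. In either direction, 15.7% of those whose mean count was 100 or more passed, so the count says nothing particular about this group. The scaffold Dlg4 (PSD-95), which had the most counts of them, had a log2 fold change of -0.04. Kif17, the kinesin that carries GluN2B along dendrites, was 14.5, 12.9, 15.3 and 15.2 CPM in HipR3, HipR4, HipR7 and HipR11, and 18.4, 17.4, 16.5 and 18.5 CPM in HipR5, HipR9, HipR10 and HipR16. The groups did not overlap, and Kif17 had a log2 fold change of -0.29 (standard error 0.10, adjusted p = 0.356 with edgeR). Lin7c, a scaffold of the complex that Kif17 carries, was higher at 0.21 (standard error 0.08, adjusted p = 0.394 from edgeR's test), with groups that overlapped.

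Downstream of the channel, 1 of the 4 genes described was lower at an unadjusted p under 0.05 from edgeR's test. Beside it stand 4.49% of all genes tested that were lower. In either direction, 15.7% of those whose mean count was 100 or more passed. Rasgrf1, a calcium-dependent Ras exchange factor that binds GluN2B, had a log2 fold change of -0.14 (standard error 0.07, adjusted p = 0.524 from edgeR's test), with overlap. After the GC correction Kif17 was at -0.24, Rasgrf1 at -0.14 and Lin7c at 0.12 on the log2 scale, of which Lin7c no longer had an unadjusted p under 0.05 (0.141). All 3 failed the adjustment over all genes.

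The genes most like each member over the 8 libraries were sought among the 12780 genes whose mean count was 100 or more, by the Pearson correlation of log2(CPM + 0.5). For Grin1 they were Kmt5c (0.992), Tmem63b (0.991) and Ppox (0.991), and for Grin3a Chl1 (0.995), Rtl6 (0.970) and Ap3m2 (0.959). Grin2c was followed by D130040H23Rik (0.985), Nupl1 (0.982) and Plod2 (0.971), and Grin2d by Fkbp15 (0.954), Ankrd13d (0.952) and Atg4d (0.951). The values for Grin2a (Pcdhgb6, 0.944) and Grin2b (Kdr, 0.945) rest on ranges of only 0.13 and 0.17 on the log2 scale. These correlations are a description of 8 libraries that share depth and GC trends, and the best of 12779 comparisons is high by selection.

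RefSeq promoter sequences (250 bases before to 50 after the start, build GRCm38.p6) matched 3 of the 6 members, Grin1, Grin2c and Grin2d. That of Grin1 is shown because Grin1 was the member whose groups did not overlap, and the capitals mark its GC box. It lies at chr2:25319138-25319437 on the minus strand.
Grin1: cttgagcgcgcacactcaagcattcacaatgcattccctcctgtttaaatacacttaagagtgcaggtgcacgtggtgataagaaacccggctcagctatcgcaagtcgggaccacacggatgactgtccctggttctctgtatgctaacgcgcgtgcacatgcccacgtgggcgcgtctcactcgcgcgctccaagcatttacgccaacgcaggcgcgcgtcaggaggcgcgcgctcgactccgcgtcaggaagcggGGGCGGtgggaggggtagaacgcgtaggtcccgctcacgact
The GC content of this window is 60.7%, against a median of 52.7% over all promoters of the table. The motif GGGCGG was found 1 time in Grin1, 3 times in Grin2c and 0 times in Grin2d, on either strand, and in 35.7% of all 32851 promoters. The androgen response element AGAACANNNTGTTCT, which contains the half-site AGAACA and its reverse complement, was found in none of the 3 windows and in 0.00913% of all promoters. The half-site alone was likewise found in none of the 3 and in 19.0% of all promoters. A missing match says only that these letters are not in the window.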

How the data were processed

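RNA of 8 mice was sequenced. The authors removed low-quality reads, aligned with HISAT2 and counted with HTSeq (GRCm39 and fastp are also named in the submitters' processing notes; versions, annotation and strand setting are not given in the sources used here). They deposited raw counts of 29442 genes and FPKM, the counts scaled by gene length and library total. No row lacked a gene name.

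The 27612 genes with at least 1 count were normalized (TMM) and tested with the quasi-likelihood test of edgeR 4.0.16 in R 4.3.3 (prior count 0.125), with Benjamini-Hochberg adjustment. Single values were compared by exact permutation tests over the 70 allocations of 4 against 4. P-values set the difference between the groups against the spread between these mice, which edgeR's test moderates over all genes. Named genes were the members, a pathway list (its genes named at an unadjusted p under 0.05 or as having the most counts in their group, except in the group downstream of the channel, where only the former are named; Slc6a9, Fyn and Src were added after their values were seen), marker lists, the AMPA receptor subunits and the 3 genes most like each member. Some genes of the pathway list are not reported here and are left out of its counts. The members and lists were chosen with earlier results of these data known. The GC content of each symbol's longest transcript in GENCODE vM21 was found for 92.7% of the 16813 genes whose mean count was 10 or more, and its effect was removed as a lowess trend (span 0.3). Alternatives were DESeq2 1.42.0, RLE normalization, filters (10 counts over all libraries, filterByExpr), limma-trend (limma 3.58.1) on log2(FPKM + 1) and log2(FPKM + 0.1), robust moderation, the GC correction, and leaving out each library. A fit of the GC-corrected genes without the correction was added after seeing the data. Scripts were tested on simulated data.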

Additional observations from a re-analysis of the deposited data

Results flagged for a closer look

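A library stood far from the other 3 of its group (the gap to its neighbour as a share of the whole range passed Dixon's 95% critical value) in 4 of the 30 groups of values examined, where chance gives about 1.5. The groups of values are not independent, since they include genes and ratios of the same genes, so the 1.5 is only a rough guide. All 4 were in the control group, and both flags of HipR9 rest on its Grin3a value. In HipR10, Grin2a was 369 CPM against 336 to 341 CPM in the other controls (gap share 0.846), and Grin2d was 10.9 CPM against 13.0 to 13.4 CPM (gap share 0.839). In HipR9, Grin3a was 42.4 CPM against 50.7 to 51.4 CPM (gap share 0.921), and the log2 ratio of Grin3a to Grin1 in counts was -3.14 against -2.85 to -2.81 (gap share 0.901). HipR10 and HipR9 were also the control libraries with the highest sums of pituitary markers (23.6 and 4.80 CPM), and HipR9 had the lowest choroid plexus sum of the controls (481 CPM). Their part in these values was not tested.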

How the results depend on the processing

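No paired analysis was possible. The methods of the paper name littermates as controls in the behavioral tests, but the deposited labels give no litter or pair. Grin1 was lower and Grin2b lower in all 17 alternative settings, as was Grin2d, and 0 of the 6 members had an adjusted p under 0.05 in any. The number of members with an unadjusted p under 0.05 was 1, and it was 0 after the GC correction and 0 to 2 with each library left out (2 without HipR7). The sign of Grin2a, Grin2c and Grin3a was not fixed. On the log2 scale, the GC correction gave -0.0056 for Grin2a, 0.018 for Grin2c and -0.0041 for Grin3a. Grin3a was also -0.0033 with DESeq2 and with RLE normalization, -0.0042 with at least 10 counts, -0.0063 with filterByExpr, -0.024 on log2(FPKM + 1), -0.028 on log2(FPKM + 0.1) and -0.0096 in the GC-corrected genes without the correction. With each library left out, Grin2c ran from -0.14 to 0.076 and Grin3a from -0.068 to 0.089.

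The log2 ratio of Grin2a to Grin1 ran from 0.15 to 0.25 with each library left out, and kept its direction, as did the other 3 ratios. Of the related genes, 3 passed at an unadjusted p under 0.05, and 1 to 5 with each library left out (1 without HipR4, 5 without HipR7). Over all genes, 0 had an adjusted p under 0.05 with edgeR (2571 unadjusted), 153 with DESeq2, 4 with robust moderation and 0 to 93 with each library left out (93 without HipR7). An unadjusted p under 0.05 with a 2-fold change was found for 442 genes, and by 164 with DESeq2, 284 with at least 10 counts, 62 with filterByExpr, 1 on log2(FPKM + 1), 48 on log2(FPKM + 0.1), 42 after the GC correction, 48 in the same genes without it and 361 to 512 with each library left out. The filters test fewer genes, and otherwise the cause was not tested.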
